A study of Bos taurus with 18 samples.

Results

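The smooth muscle contractile genes are 10 genes, taken by symbol (ACTA2, TAGLN, CNN1, MYH11, MYL9, TPM1, TPM2, CALD1, LMOD1 and DES), out of 16989 gene symbols counted in every library. All 10 were listed and 9 had reads. LMOD1 had 0 reads in all 18 libraries. So did CSRP1, PDLIM3 and PPP1R12B of the lists used below, and 2548 gene symbols in all. Whether such a 0 means no expression or no countable reads was not tested. The libraries came from bone marrow-derived mesenchymal stem cells (MSCs) of juvenile cattle, all from 1 donor, grown on plastic in DMEM with serum and antibiotics, with no differentiation medium. 17 libraries were single-cell-derived clones, named A to Q, and 1 was a heterogeneous, many-cell population (Het). Each population was sequenced once, so no clone has a replicate error and the spread given below is the spread between clones of 1 animal.

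In smooth muscle, force comes from myosin pulling on actin filaments. Smooth muscle actin (ACTA2) forms the thin filament, the tropomyosins (TPM1, TPM2), caldesmon (CALD1) and calponin (CNN1) lie along it, and the smooth muscle myosin heavy chain (MYH11) works with the regulatory light chain (MYL9), which is switched on by phosphorylation. Many of these genes are known targets of serum response factor (SRF) and its coactivators, and cultured stromal cells switch on some of them when they spread and pull on a stiff surface. MYH11, LMOD1 and DES are commonly read as markers of mature muscle, whereas ACTA2 and TAGLN also rise in myofibroblasts.

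Reads on genes ran from 11484812 to 18458157 per clone (median 14193790) and came to 16092501 in Het. Values are CPM, counts scaled to an equal total of reads on genes, with no correction for gene length, so levels are compared between libraries and not between genes. At these depths a count of 0 allows a level of up to 0.163 to 0.261 CPM (3 reads). This bound covers counting error only and holds only for genes whose reads could be counted. The labelled cell type was checked on markers. The 12 stromal genes summed to 59465 to 198207 CPM in the clones, the 10 pericyte genes to 898 to 1687 CPM, the 10 endothelial genes to 15.8 to 88.5 CPM and the 18 striated muscle genes to 4.09 to 15.7 CPM. Within these lists the levels were uneven, so the sums are not compared between lists. In the stromal list COL1A1 and COL1A2 had medians of 59992 and 43366 CPM, against 182 CPM for ENG. The pericyte genes CSPG4 and PDGFRB ran from 180 to 1082 CPM while RGS5 had at most 1 read. PDGFRB is also in the stromal list. The endothelial ERG had 186 to 1177 reads while CDH5, ESAM and CLDN5 had 0. MYOD1 and MYOG had 0 reads while TNNT3 had up to 99. The 2 most similar clones, C and O, differed beyond sampling noise (mean chi-square per gene 4.90, where sampling alone gives about 1), but far less than the next pair, E and F, at 22.2; both were kept as separate clones.

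Thin-filament actin was the most variable of the abundant members. ACTA2 had 468 CPM in clone Q, a median of 2921 CPM and 6048 CPM in clone K, a 12.9-fold range. Its SD over the 17 clones was 1.14 log2 units, larger than in 95.3% of the 11477 genes that exceeded 1 CPM somewhere among the clones (median SD 0.35). Whether the clones fell into groups was not tested. Clones K, F and E stood at the top, and clones P (720.5 CPM), N (578 CPM) and Q at the bottom. Of the 16 neighbouring pairs in this order, only clones I and A had overlapping 95% Poisson intervals, which cover counting error of a single library and not biological error.

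The actin-bundling protein transgelin (TAGLN) spanned less. It ran from 1195 CPM in clone Q over a median of 2333 to 3791 CPM in clone F (SD 0.52 log2 units). The ratio of ACTA2 to TAGLN reads moved from 0.389 in clone N to 1.66 in clone K, with a median of 1.14. Calponin, which inhibits actomyosin, ran from 82.2 CPM in clone Q over 166 to 420 CPM in clone K (CNN1, SD 0.72 log2 units). Clones K, I, E and F held its 4 highest values, from 356 to 420 CPM, and clone A followed at 252 CPM.

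The myosin light chain and the tropomyosins covered about the same relative range as each other. MYL9 ran from 322 CPM in clone O over 681 to 1345 CPM in clone K (SD 0.65 log2 units). TPM1 ran from 416 CPM in clone Q over 892 to 1513 CPM in clone K (SD 0.53), and clones K and F could not be ordered beyond counting error. TPM2 ran from 1110 CPM in clone O over 2240 to 4660 CPM in clone K (SD 0.64). Caldesmon (CALD1), whose gene also gives a non-muscle form that gene-level counts cannot separate, ran from 699.7 CPM in clone O over 1336 to 2736 CPM in clone K (SD 0.53).

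Of the markers of mature muscle, LMOD1 had 0 reads in every library, and MYH11 rested on far fewer reads than DES. MYH11 had 16 reads in clone O (1.02 CPM), 40 in clone A, the median (3.25 CPM), and 212 in each of clones K and P (15.4 and 12.2 CPM), with an SD of 1.15 log2 units. None of its 16 neighbouring pairs was separable beyond counting error, so only distant clones can be told apart for this gene. MYH11 also overlaps NDE1 in the RefSeq table, and reads shared by the 2 genes cannot be assigned. Desmin (DES), the intermediate filament protein of muscle, ran from 30.7 CPM in clone L over 181 to 367 CPM in clone P (SD 1.03 log2 units, larger than in 93.6% of genes), on 430 to 6357 reads. The 10 genes together took 0.538% of the reads on genes in clone Q, 1.04% in the median clone and 2.06% in clone K.

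**Figure D1:**
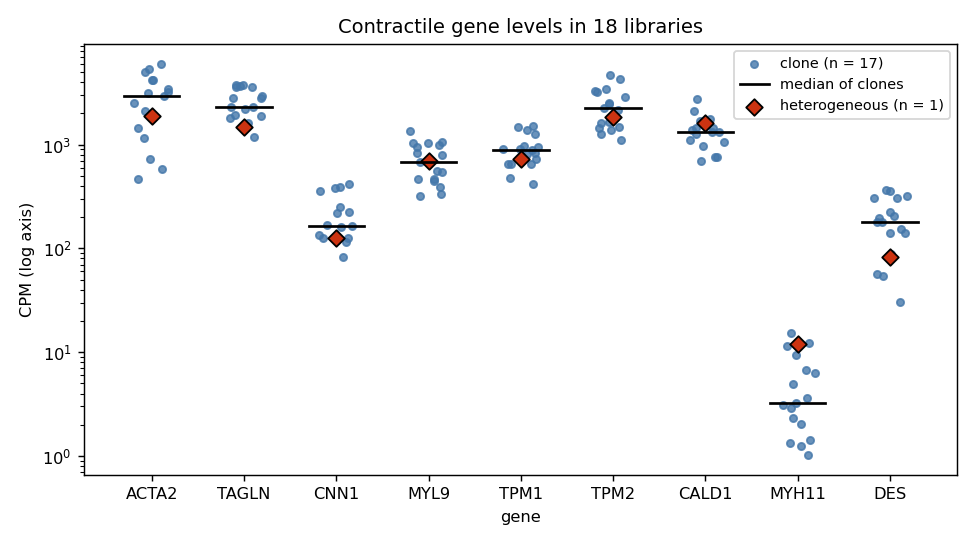
Level of the 9 detected genes in CPM on a log axis, 1 blue point per clone (17 clones), a black bar at the median of the clones and a red diamond for Het. ACTA2, MYH11 and DES span more than 10-fold between clones, and every diamond lies within the range of the clones. CPM is not corrected for length, so heights are not comparable between genes.

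The next question was whether the members varied together from clone to clone. Clone K had the highest level of 7 of the 9 detected genes. Clone Q had the lowest level of ACTA2, TAGLN, CNN1 and TPM1, and clone O the lowest of MYL9, TPM2, CALD1 and MYH11. The order was not shared by all members. Clone P was 15th of 17 for ACTA2 and TAGLN and 16th for TPM1, yet 2nd for MYH11 and 1st for DES. Clones C and O were 5th and 3rd for DES while lying 11th or lower for all the others, and clone F was 2nd for ACTA2 and 13th for DES.

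**Figure D2:**
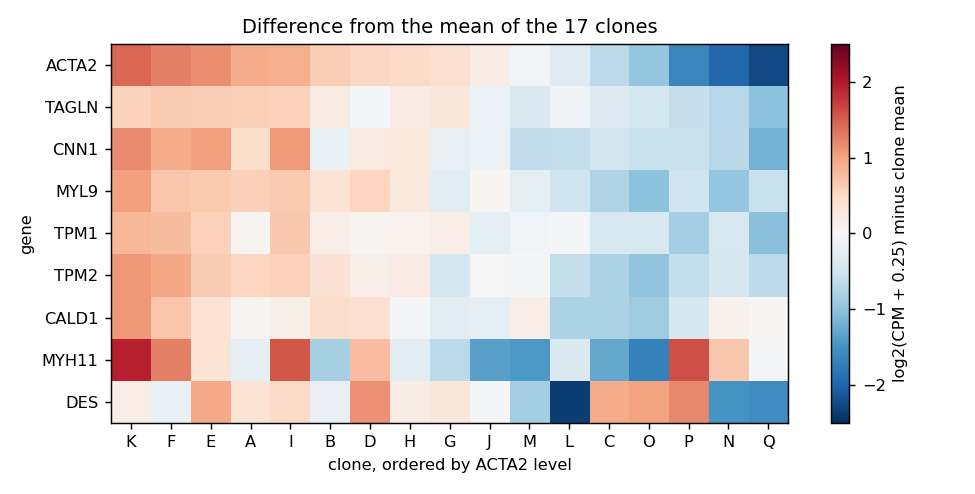
Difference of log2(CPM + 0.25) from the mean of the 17 clones, with clones ordered from the highest to the lowest ACTA2 level and genes in rows. The upper 6 genes fade from red to blue together. In MYH11 clones P and N break that order, and in DES clones C, O and P are red while clone L is the deepest blue.

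Pearson r and Spearman rho were computed over the 17 clones for each member against every other gene, with two-sided permutation p-values (100000 resamples) adjusted over all 11476 other genes. A pair of members was counted when it passed an adjusted p of 0.05 with each of its genes in turn as the reference. Of 36 pairs, 17 were counted, all positive. They were the 15 pairs among ACTA2, TAGLN, CNN1, MYL9, TPM1 and TPM2, with r from 0.807 to 0.953 (rho from 0.826 to 0.956), and the pairs of CALD1 with MYL9 and with TPM2. With any 1 clone left out, r among the 6 genes stayed between 0.770 and 0.974.

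Against ACTA2 as the reference, 4.03% of all genes were called with a positive r and 9.02% with a negative one, and 5 of the 8 other members were called, all positive. TAGLN followed it most closely (r = 0.953, permutation p = 1e-05, the smallest these resamples can give, adjusted p = 0.00188; rho = 0.956, permutation p = 1e-05). Without clones N and Q, the 2 farthest from the median of ACTA2, r was still 0.926. TPM1 had r = 0.919 (adjusted permutation p = 0.00188, rho = 0.924), MYL9 0.879 (adjusted permutation p = 0.00188, rho = 0.956), CNN1 0.873 (adjusted permutation p = 0.00302, rho = 0.919) and TPM2 0.836 (adjusted permutation p = 0.00335, rho = 0.914). Without clones N and Q these 4 had r = 0.928, 0.904, 0.851 and 0.902. The median r of the 8 members with ACTA2 was 0.855, against -0.21 over all genes. These r used CPM scaled by library totals alone. In the slopes given below, that scaling called 465 genes higher and 1219 lower. With TMM, the scaling used in edgeR, 936 were higher and 955 lower. How far the -0.21 and the excess of negative calls depend on scaling was not tested. TAGLN, CNN1 and TPM1 as the reference also called 5 of 8 members each, all positive, where they called 2.26%, 0.741% and 2.68% of all genes as positive.

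Thin filament and light chain showed a second close pair. MYL9 and TPM2 had r = 0.952 (adjusted permutation p = 0.00441 with MYL9 as the reference, rho = 0.953), and r = 0.970 without the 2 clones farthest from the median of MYL9. CALD1 had r = 0.864 with TPM2 (adjusted permutation p = 0.00319 with TPM2 as the reference, rho = 0.833) and 0.784 with MYL9 (adjusted permutation p = 0.00908 with MYL9 as the reference, rho = 0.775). Many other genes went with them, since 4.35% of all genes were called positive with MYL9 (6 of 8 members), 4.77% with TPM2 (6 of 8) and 7.48% with CALD1 (4 of 8). CALD1 did not pass the test with ACTA2 (r = 0.550, adjusted permutation p = 0.102; rho = 0.696, adjusted permutation p = 0.0337).

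**Figure D3:**
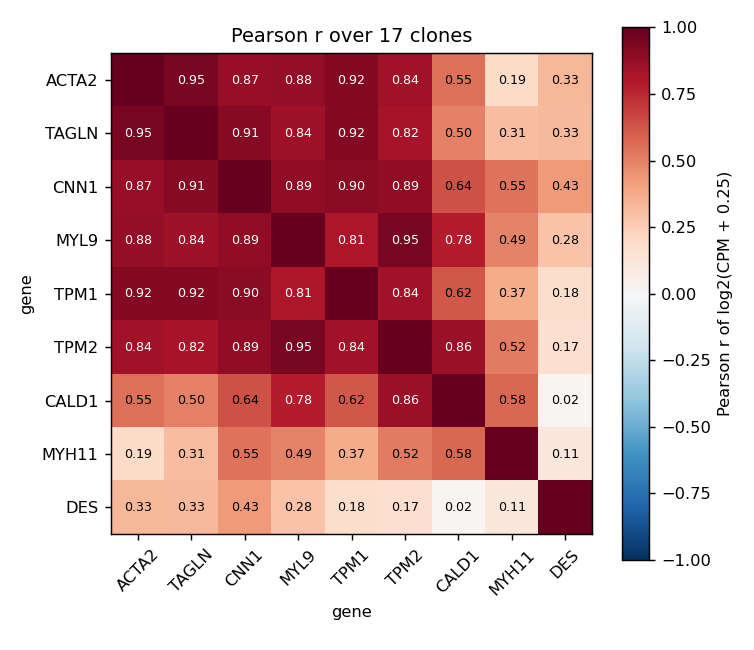
Pearson r of log2(CPM + 0.25) over the 17 clones for each pair of the 9 detected genes. The block of 6 genes at the upper left holds values from 0.81 to 0.95, CALD1 is closest to TPM2 and MYL9, and the row of DES holds no value above 0.43.

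MYH11 and DES stood outside these pairs. With MYH11 as the reference, 0 of 11476 genes passed the adjusted p by Pearson r and 0 by Spearman rho, while 1020 and 1086 had an unadjusted permutation p under 0.05. Its r with the 6 closely paired genes ran from 0.191 to 0.546. With DES as the reference, 0 genes passed by either measure, with 1615 and 1052 at an unadjusted permutation p under 0.05, and its r with the same 6 genes ran from 0.166 to 0.429. MYH11 and DES had r = 0.111 with each other (permutation p = 0.673, rho = 0.154, r = -0.0305 without the 2 clones farthest from the median of MYH11). A p that misses the threshold does not show that these genes vary independently, and MYH11 in addition rests on few reads.

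Clones N, P and Q shaped the weak relations of MYH11 and CALD1 to ACTA2. These clones had the 3 lowest ACTA2 levels but 86, 212 and 53 reads of MYH11 (6.24, 12.2 and 3.65 CPM) and 1387, 968 and 1315 CPM of CALD1. Over the other 14 clones, chosen after the values were seen and given with no test, r with ACTA2 was 0.807 for MYH11 and 0.886 for CALD1, against 0.191 and 0.550 over all 17. For DES it was 0.110 over the 14 clones and 0.329 over the 17.

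**Figure D4:**
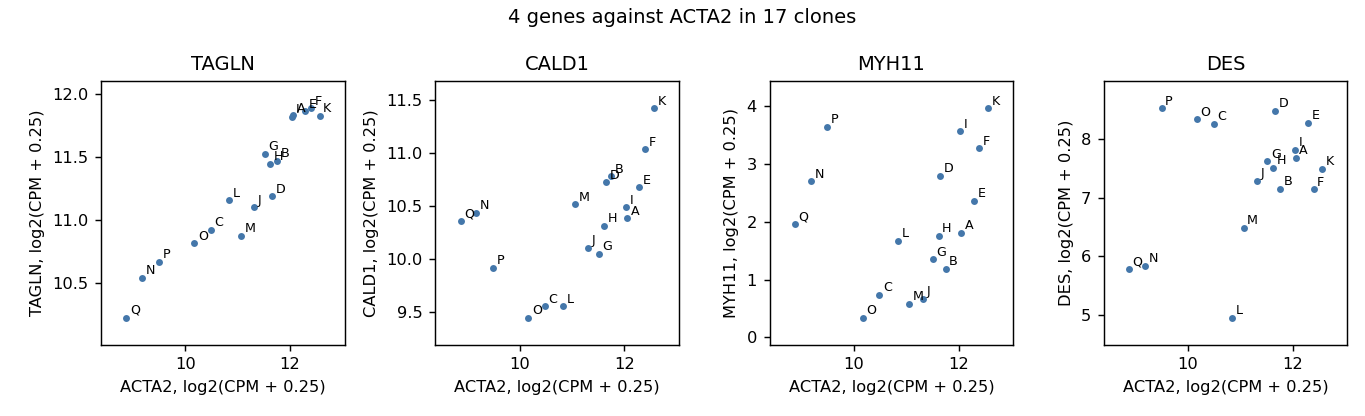
TAGLN, CALD1, MYH11 and DES against ACTA2, each as log2(CPM + 0.25), 1 lettered point per clone (17 clones). TAGLN rises along a line, in CALD1 and MYH11 clones N, P and Q lie above the trend of the other clones, and in DES the points scatter.

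The same question was put to the counts of all genes. edgeR's quasi-likelihood test fitted, for each of 11243 genes, a slope on ACTA2 over the 17 clones, in log2 units per doubling of ACTA2. It called 8.33% of genes higher and 8.49% lower with ACTA2 at an adjusted p under 0.05, 16.8% in all. Of these calls 49.5% were higher, against 27.6% when libraries were scaled by their totals alone (465 higher, 1219 lower). Of the 8 other members with reads, all of which passed the filter, 6 were higher, 0 were lower and 2 were not called, and their median slope was 0.46 against -0.02 over all genes.

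Per doubling of ACTA2, CNN1 rose by 0.58 (standard error 0.07, adjusted p = 6.59e-05 by edgeR). MYL9 rose by 0.52 (0.07, adjusted p = 0.000121 by edgeR) and TPM2 by 0.49 (0.07, adjusted p = 0.000326 by edgeR). TAGLN rose by 0.46 (0.04, adjusted p = 3.83e-06 by edgeR) and TPM1 by 0.45 (0.05, adjusted p = 1.63e-05 by edgeR). All 5 slopes lay well under 1, so over the same clones these genes changed less than ACTA2 did. CALD1 rose by 0.28 (0.09, adjusted p = 0.0347 by edgeR), and this call was lost without clone E, F, K or P (adjusted p 0.0520 to 0.0782, slope 0.24 to 0.29), with library totals in place of TMM scaling (0.0705, slope 0.24), with TAGLN in place of ACTA2 (0.0516) and with a term for the share of reads outside genes (0.125, slope 0.28). MYH11 had a slope of 0.19 (0.20, adjusted p = 0.563 by edgeR) and DES one of 0.16 (0.20, adjusted p = 0.601 by edgeR).

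Reads outside genes made up 18.8% to 26.8% of each file, and this share had r = -0.491 with ACTA2 (permutation p = 0.0420, adjusted p = 0.252 over 18 relations of the members to this share and to depth; rho = -0.449, permutation p = 0.0714; r = -0.289 without the 2 clones farthest from its median). It had r = -0.572 with DES (permutation p = 0.0177, adjusted p = 0.252, rho = -0.299 with permutation p = 0.242, r = -0.0383 without those 2 clones) and r = -0.509 with MYL9 (permutation p = 0.0324, adjusted p = 0.252, rho = -0.441 with permutation p = 0.0781, r = -0.286 without them). With that share as a further term, a setting added after seeing the data, edgeR called 1112 genes in place of 1891, and CNN1, MYL9, TAGLN, TPM1 and TPM2 passed in both. Its part in the slopes was not tested beyond this. The labels give no batch or date.

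Other genes of contraction were then taken from fixed lists. The counts of each list stand beside 8.33% of all genes called higher and 8.49% lower. Of 15 other smooth muscle genes tested, 6 were higher with ACTA2, 0 lower and 9 not called. Synaptopodin 2 (SYNPO2), an actin-binding protein of muscle, ran from 3.52 CPM in clone Q over 25.5 to 270 CPM in clone K and rose by 1.12 per doubling of ACTA2 (0.22, adjusted p = 0.00272 by edgeR). ACTG2, the second smooth muscle actin, rose by 0.63 (0.18, adjusted p = 0.0226 by edgeR). ACTG2, ACTA1 and ACTC1 encode proteins near-identical to that of ACTA2, and whether reads were shared among these actins was not tested. KCNMB1, a potassium channel subunit of smooth muscle, rose by 1.0 (0.28, adjusted p = 0.0198 by edgeR) on 1 to 228 reads, and its slope was 1.52 without clone P and 1.62 by limma. ACTG2 lost its call without clone Q (adjusted p = 0.0552), and HSPB7, a small heat shock protein of muscle with at most 59 reads, in 10 of the 17 fits with 1 clone left out. Smoothelin (SMTN), a marker of contractile smooth muscle, had a slope of 0.18 (0.11, adjusted p = 0.254 by edgeR).

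The light chain is switched on and off by a kinase and a phosphatase. Of 11 of their subunits and upstream genes, 5 were higher with ACTA2, 1 was lower and 5 were not called, with a median slope of 0.08. Myosin light chain kinase (MYLK), which phosphorylates MYL9, ran from 23.2 CPM in clone Q over 94.6 to 328 CPM in clone K. It rose by 0.89 per doubling of ACTA2 (0.13, adjusted p = 0.000285 by edgeR). On the opposing side, the phosphatase's targeting subunit PPP1R12A rose by 0.35 (0.04, adjusted p = 5.13e-05 by edgeR). PPP1R14A, which inhibits that phosphatase and so acts on the side of MYLK, rose by 0.73 (0.09, adjusted p = 8.73e-05 by edgeR), on 12 to 162 reads. The call of ARHGEF1, the 1 lower gene, was lost in 14 of the 17 fits with 1 clone left out.

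SRF itself did not pass. Of 8 tested regulators, 0 were called by edgeR, DESeq2 or limma, and 0, 0 and 1 had an unadjusted p under 0.05. SRF ran from 44.0 to 95.1 CPM with a slope of 0.03 (0.07, adjusted p = 0.807 by edgeR), and its coactivator MKL1 from 72.7 to 183 CPM with a slope of -0.11 (0.06, adjusted p = 0.178 by edgeR). Of 17 other SRF targets tested, 9 were higher, 0 lower and 8 not called. They included palladin (PALLD, 0.47, standard error 0.06, adjusted p = 5.13e-05 by edgeR), filamin A (FLNA, 0.31, 0.05, adjusted p = 0.000781 by edgeR) and vinculin (VCL, 0.22, 0.05, adjusted p = 0.00704 by edgeR), which anchor or cross-link actin. CTGF, another target, had a slope of 0.02 (0.12, adjusted p = 0.930 by edgeR).

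Among 13 non-muscle counterparts, 4 were higher, 1 was lower and 8 were not called, with a median slope of 0.12. Over all genes 8.33% were higher and 8.49% lower. The cytoplasmic actins ACTB (0.09, 0.08, adjusted p = 0.439 by edgeR) and ACTG1 (0.12, 0.06, adjusted p = 0.217 by edgeR) were not called, and the ratio of ACTA2 to ACTB reads moved from 0.165 in clone N to 1.75 in clone K. The 4 higher genes included the calponin CNN2 (0.35, standard error 0.05, adjusted p = 0.000276 by edgeR) and the light chain MYL6 (0.27, 0.05, adjusted p = 0.000965 by edgeR). The tropomyosin TPM4 rose by 0.27 (0.06, adjusted p = 0.00330 by edgeR) and non-muscle myosin MYH9 by 0.26 (0.06, adjusted p = 0.00730 by edgeR). The light chain MYL12B, the 1 lower gene, was counted at 13 to 82 reads and lost its call in 7 of the 17 fits.

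Markers of other cells and of division were compared in the same way. Of 12 DNA replication and mitosis genes, 0 were called by edgeR, limma or DESeq2 (0, 0 and 6 at an unadjusted p under 0.05), with all 12 slopes negative, from -0.55 to -0.26 with a median of -0.45, while the list's summed level ran from 108 to 1923 CPM. Of 4 macrophage and 4 endothelial genes with enough reads, 0 were called by any of the 3 tools, and 0 and 3 had an unadjusted p under 0.05 by each. Of 4 striated muscle genes tested, 2 were lower, TNNT3 (-0.63) and MB (-0.44), on 5 to 99 and 6 to 44 reads. Of 12 stromal genes, 1 was called higher and 2 lower, near the 16.8% of all genes called in either direction. COL1A1 rose by 0.45 (0.10, adjusted p = 0.00635 by edgeR). PDGFRA fell by 0.60 (0.11, adjusted p = 0.00134 by edgeR) and decorin (DCN) by 0.41 (0.11, adjusted p = 0.0158 by edgeR). DCN lost its call without clone N or Q (adjusted p up to 0.103). Of 6 pericyte genes, CD248 was higher (0.59) and ANGPT1, on 5 to 163 reads, lower (-0.84). With the term for reads outside genes, ACTG2 (slope 0.71), FHL1 (0.30), KCNMB1 (0.86), ARHGEF1 (-0.25), CD248 (0.53), DCN (-0.36), TNNT3 (-0.55) and MB (-0.37) also missed the threshold (adjusted p 0.0594 to 0.125 by edgeR, CALD1 included). COL1A1 passed with a slope of 0.27.

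**Figure D5:**
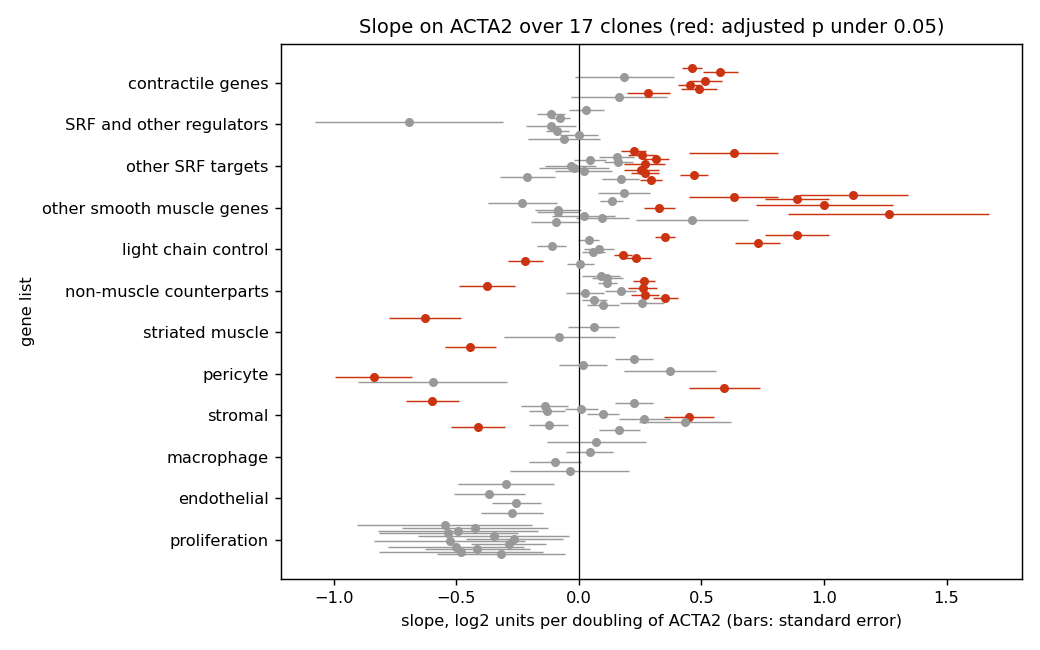
Slope of each tested gene on ACTA2 over 17 clones, in log2 units per doubling of ACTA2 with its standard error, grouped by list; red marks an adjusted p under 0.05 by edgeR. ACTG2, MYLK, TPM4, PDGFRB and VIM appear in 2 lists each. The contractile genes, the other SRF targets and the other smooth muscle genes hold red points on the right only. The regulator, macrophage, endothelial and proliferation genes hold none.

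The genes whose pattern was most like that of ACTA2 were found by Pearson r over the 17 clones. Outside the members they were SEPT11, a septin (r = 0.949, rho = 0.887), the phosphatase DUSP4 (0.935, rho = 0.944), SYTL2 (0.935, rho = 0.887), PALLD (0.925, rho = 0.902) and junctophilin 2 (JPH2, 0.924, rho = 0.956). The most opposed were ARL9 (r = -0.937, rho = -0.895), the transcription factor TRPS1 (-0.923, rho = -0.890), TMEM30B (-0.912, rho = -0.828), FRMD4B (-0.909, rho = -0.799) and GFPT2 (-0.907, rho = -0.877). All 10 had a permutation p of 1e-05 for r, the smallest possible, and an adjusted permutation p of 0.00188. Without clones N and Q their r stayed between 0.854 and 0.932 in the first 5 and between -0.91 and -0.83 in the others. DUSP4 had as few as 7 reads in a clone. Of these, GFPT2 ran from 7.36 CPM in clone E to 117 CPM in clone N and JPH2 from 18.9 CPM in clone N to 117 CPM in clone K.

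Finally, Het was compared with the 17 clones. In a mixed culture, fewer cells of a type and less RNA per cell cannot be told apart. Het had 1896 CPM of ACTA2 (6 clones lower), 1490 CPM of TAGLN (2 lower) and 127 CPM of CNN1 (5 lower). It had 695 CPM of MYL9 (9 lower), 729 CPM of TPM1 (6 lower), 1844 CPM of TPM2 (7 lower) and 1628 CPM of CALD1 (12 lower). All 9 members lay within the range of the clones, as did most of the 11878 genes tested, so this does not set the members apart. Of all genes tested, 17.6% lay outside that range, 6.7% above and 10.9% below every clone. MYH11, at 192 reads or 11.9 CPM, was above 15 of the 17 clones, and DES, at 83.5 CPM, was above 3.

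edgeR called 1.25% of genes in Het, 148 higher (1.25%) and 1 lower (0.00842%), and 0 of the 9 members. 0 members had an unadjusted p under 0.05 by edgeR, and DESeq2 and limma called 0 as well (0 and 1 unadjusted). The largest differences from the clones were log2 1.28 for MYH11 (standard error 1.0, adjusted p = 0.753 by edgeR) and -1.15 for DES (standard error 1.02, adjusted p = 0.790 by edgeR). ACTA2 differed by -0.55 (standard error 1.10, adjusted p = 0.920 by edgeR). With 1 library and standard errors of 0.56 to 1.10, changes of 2-fold in the members were not detectable. The 12 macrophage markers summed to 160 CPM in Het against 2.98 to 8.99 CPM in the clones. All 12 lay above every clone, where 6.7% of all genes tested did. Of the 12 proliferation genes, 9 lay below every clone, where 10.9% of all genes tested did. The proliferation genes had a median log2 difference of -2.74 but were not called in Het by edgeR, limma or DESeq2. In the other lists edgeR called 1 gene, the pericyte marker ABCC9, on 23 reads in Het and at most 4 in a clone, and DESeq2 did not call it (adjusted p = 0.154), while limma called 2 pericyte genes and 1 endothelial gene. The part of these markers in the members' levels was not tested.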

How the data were processed

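Poly(A) RNA was sequenced with single-end reads, which the authors aligned to bosTau7 with STAR (2.3.0e in the submitters' processing notes) and counted with HTSeq on RefSeq annotation release 103. Deposited values are raw counts per gene, unnormalized, and the 5 tally lines naming no gene stayed out. CPM used library totals, adding 0.25 before taking log2. Whether counting used strand is not given in the sources used here. Slopes on ACTA2 and Het against clones used edgeR 4.0.16 (TMM, filterByExpr, glmQLFit, glmQLFTest) in R 4.3.3 with Benjamini-Hochberg adjustment over all genes tested. DESeq2 1.42.0, limma 3.58.1, other scalings, no filter, TAGLN in place of ACTA2, further terms (proliferation, reads outside genes), Spearman rho and each clone left out were alternatives. The reads-outside-genes term, Spearman rho for pair calls and leaving out clones N, P and Q were added after seeing the data. Correlations used numpy 2.4.6.

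On simulated counts edgeR found 71% of genes changed at a slope of 0.5 (11102 genes, 5.33% of calls false) and 66% at log2 2 in Het (11147 genes, 8.33% false). DESeq2 had 16.0% and 28.0% false calls there. The simulation drew genes independently with 200 of them changed, while 1891 genes were called in the slopes on ACTA2. These false-call rates need not hold for the data.

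The members and lists were chosen with earlier results of these data known. Named genes are the members, list genes, and the 5 genes with the highest and the 5 with the lowest r with ACTA2. Promoter sequences were not used here. A table of the same counts was not used. Whether clones came from separate dishes is not stated, so p-values measure the spread between these samples.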

Additional observations from a re-analysis of the deposited data

How the results depend on the processing

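Among the alternatives run, 5 or 6 members passed in the slope on ACTA2, the lower count wherever CALD1 was lost, and 15 to 19 member pairs passed. With each clone left out in turn, 5 to 6 members, 1449 to 1921 of all genes and 15 to 18 pairs passed. Over all genes 1891 passed, against 1300 higher and 1510 lower with a proliferation term and 1201 higher and 1137 lower by DESeq2. With a term for reads outside genes 1112 passed and the slope of DES, not called, was -0.0826. With library totals 27.6% of calls were higher, against 49.5% with TMM (465 and 936 genes). DESeq2 called 89 and limma 226 genes in Het, against 149 by edgeR, and 141 to 160 with a clone left out, with 0 members in each. The near-zero difference of MYL9 in Het was -0.0513 with library totals and ranged from -0.0412 to 0.079 with a clone left out. The cause of these shifts was not tested. The median SD of the members was 0.65, 0.65 with a pseudocount of 1 and 0.72 with TMM. Counts limit MYH11 most. No paired analysis was possible because the labels give neither the clones nor Het a replicate number.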
